A study of Mus musculus with 4 samples.

Results

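Follicular helper T cells of the wild-type (TGFβR-WT) mouse small intestine were compared by cluster name: 199 cells that the authors named GC-TFH (germinal center) against 460 cells that they named TR-TFH (tissue resident), of 1007 TGFβR-WT cells and 5080 cells in the whole table. The members were all cells labelled WT in the deposited table that carried either name. The sorted cells were YFP+CD4+ T cells, in which an *Il17a*-driven Cre recombinase had switched on YFP, so that YFP marks T cells that have expressed *Il17a* at some time and not only those that still do. Mice were C57BL6, 7 to 8 months old, and pooled for each sample. The paper used both sexes, without naming the sex of each sample. All groups carried *Il17a-cre* and the stop-floxed *yfp* reporter. TGFβR-WT mice (2 samples) had no further change in TGFβ signaling, TGFβR-KO mice (1 sample) also carried floxed *Tgfbr2*, and TGFβR-CA mice (1 sample) carried a constitutively active *Tgfbr1* that Cre switches on.

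Follicular helper T cells are the CD4+ T cells that help B cells. The transcription factor BCL6 sets up their program, the chemokine receptor CXCR5 guides them into B cell follicles, and within germinal centers they give B cells survival and selection signals such as IL-21 and CD40 ligand. In the intestine, germinal centers form in Peyer's patches, where T cells that once made IL-17 can take on a follicular helper program.

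Each cell came from droplet capture, in which every captured RNA molecule receives a unique molecular identifier (UMI). The deposited values were the natural log of 1 plus the UMIs that SCTransform had corrected to a common depth. Levels were computed by undoing the log, adding up a gene's corrected UMIs in a group of cells and scaling the group's total to 10000. TGFβR-WT cells fell into a larger set (141 GC-TFH and 327 TR-TFH cells) and a smaller set (58 and 133) by the number that ends their names, and nothing in the labels ties these sets to the 2 TGFβR-WT samples. They were used as technical sets and not as replicates. Every comparison was made within each of them and only what held in both was called. The paper describes 2 sequencing runs, 1 of TGFβR-KO with TGFβR-WT cells and 1 of TGFβR-CA with TGFβR-WT cells. Whether the sets are these runs, or differ in mice, is not given by the labels. The median cell held 3636 corrected UMIs and 1570 detected genes in GC-TFH and 3305 and 1371 in TR-TFH of the larger set, against 4254 and 1815, and 3895 and 1656, in the smaller set. GC-TFH cells thus held more corrected UMIs and detected genes in both sets, which does not measure their sequencing depth. The larger TGFβR-WT set shared 14 cell barcodes with TGFβR-KO and 1 with the smaller set, and 2 of the cells compared, both TR-TFH, carried a shared barcode. The sets also stood apart in content. *Xist*, the RNA that silences an X chromosome, was listed at 0 in GC-TFH and TR-TFH cells of the larger set and stood at 9.48 and 10.2 in the smaller set. The sets may thus differ in the sex of the mice, which the labels do not give and which was not tested.

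The names came from a clustering of these same cells, with every condition clustered together. A gene that differs between the names therefore may have made the names, and cells are not replicates. The differences are a description, with no test and no p-value, and a gene was called where its level differed at least 1.5 times in the same direction in both sets after 0.1 was added to each level. Folds are given on this scale, which understates the change of low genes, and pairs of values run from the larger set to the smaller one, with GC-TFH named or placed before "against" unless said otherwise.

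Of 3697 genes with at least 100 corrected UMIs over the compared cells, 179 (4.84%) were higher in GC-TFH and 72 (1.95%) were higher in TR-TFH in both sets. These shares are the ones to set beside the count of calls in each list below. The larger set alone gave 394 and 187, and the smaller set alone 458 and 288. Only 4 of the tested genes passed 1.5 times in opposite directions, *Ly6a*, *Cir1*, *Hipk3* and *Efhd2*, each higher in GC-TFH in the larger set (named after their values were seen, as is *Xist*). The median tested gene was itself shifted toward GC-TFH, by 0.11 on the log2 scale in the larger set and 0.06 in the smaller one. With these medians set to 0, 133 and 97 genes were called, and the share of calls on the GC-TFH side moved from 71.3% to 57.8%. *Tox*, a nuclear factor of follicular helper cells, lay just outside the limit of 0.585 on the log2 scale, with ratios of 0.58 and 0.78.

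**Figure D1:**
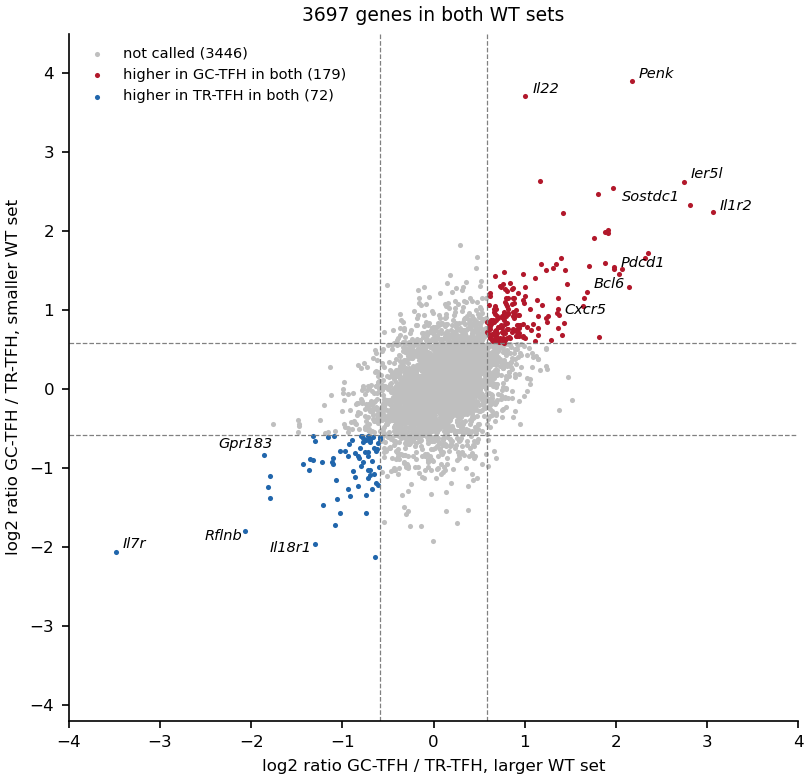
The log2 ratio of GC-TFH over TR-TFH for 3697 genes in the larger (horizontal axis) and the smaller TGFβR-WT set (vertical axis), with dashed lines at 1.5 times. The 179 genes called for GC-TFH fill the upper right, *Il7r* stands apart at the lower left, and the 2 highest points of the smaller set, *Penk* and *Il22*, rest there mostly on 1 cell each.

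The markers that the study used for the names were checked next. These lists were chosen on these cells and are not independent evidence of their direction. Of the 6 GC-TFH markers, 4 were called for GC-TFH. *Cxcr5* stood at 2.50 in GC-TFH and 0.909 in TR-TFH of the larger set, and at 2.90 and 1.25 in the smaller set. *Bcl6* stood at 2.59 and 0.740, then 1.45 and 0.561. *Pdcd1*, which encodes the inhibitory receptor PD-1, stood at 4.57 and 1.09, then 5.67 and 1.87. In all 3 genes, both GC-TFH levels lay above both TR-TFH levels. *Tnfrsf4*, the costimulatory receptor OX40, was 3.95 and 2.87 times higher. *Icos*, the costimulatory receptor that follicular helper cells need, and *Maf*, a transcription factor shared with Th17 cells, were not called. *Icos* reached 7.88 against 4.33 in the larger set but 8.15 against 6.43 in the smaller one, and *Maf* had log2 ratios of 0.28 and 0.43.

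All 4 TR-TFH markers were called for TR-TFH. *Il7r*, the receptor for the survival cytokine IL-7, stood at 7.45 in TR-TFH and 0.574 in GC-TFH of the larger set, and at 5.87 and 1.32 in the smaller set. *Gpr183*, which encodes the oxysterol receptor EBI2 that draws cells to the edge of the follicle, stood at 8.52 in TR-TFH and 2.28 in GC-TFH, then 4.52 and 2.48. *Rflnb*, a filamin-binding protein, stood at 5.03 in TR-TFH and 1.13 in GC-TFH, then 5.42 and 1.49. *Itga4*, the α4 integrin chain, was 1.91 and 2.41 times higher in TR-TFH. The gap in *Il7r* was the widest of any tested gene on the TR-TFH side in the larger set, and those in *Il7r* and *Gpr183* were narrower in the smaller set.

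Of the 6 GC-TFH markers, *Cxcr5*, *Bcl6* and *Pdcd1* were higher in TR-TFH than in the pooled other clusters in both sets. *Cxcr5* in TR-TFH, at 0.909 and 1.25, compared with 0.102 and 0.160 in all other TGFβR-WT clusters together. *Bcl6* in TR-TFH was 0.740 and 0.561, against 0.284 and 0.137 in those clusters, and *Pdcd1* was 1.09 and 1.87, against 0.501 and 0.595. Over all TGFβR-WT cells the nearest of those clusters was Cycling for each of these genes. *Bcl6* was close, at 0.682 in TR-TFH and 0.587 in Cycling. *Cxcr5* stood at 1.02 and 0.470 there, and *Pdcd1* at 1.34 and 0.822. *Icos* and *Maf* were lower in TR-TFH than in the other clusters in both sets, *Maf* at 22.4 and 16.9 against 24.6 and 23.6. *Tnfrsf4* in TR-TFH was 0.953 against 1.73 in the pooled other clusters of the larger set and 0.916 against 0.824 in the smaller one. *Il7r* in TR-TFH, in contrast, lay within the range of the other clusters, which ran from 1.51 in 5 cells named Tumorigenic to 14.4 in 89 cells named Migratory over all TGFβR-WT cells. *Itga4* in TR-TFH also lay within the range of the other clusters, from 1.116 in Cycling to 7.275 in Migratory over all TGFβR-WT cells. *Gpr183* was at 7.23 in TR-TFH over those cells, and the next cluster, Pre-tumorigenic, was close at 7.03. Against the pooled other clusters, *Gpr183* in TR-TFH was 8.52 against 3.54 in the larger set but 4.52 against 4.85 in the smaller one. *Rflnb* stood further apart, at 5.16 in TR-TFH over all TGFβR-WT cells, and the next cluster, Migratory, was at 2.04.

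In single cells cells under the names overlapped. After each cell was thinned to 2000 corrected UMIs, which left out no cell, *Cxcr5* was seen in 31.9% of GC-TFH cells (exact Clopper-Pearson 95% confidence interval 24.3 to 40.3) and 15.6% of TR-TFH cells (11.8 to 20) of the larger set, against 1.25% of cells in the other clusters. In the smaller set the shares were 34.5% (22.5 to 48.1) and 22.6% (15.8 to 30.6), and these intervals overlap. Unthinned, they were 47.5% and 24.5% in the larger set and 55.2% and 39.1% in the smaller one. *Il7r* was seen after thinning in 5.67% (2.48 to 10.9) of GC-TFH and 46.5% (41.0 to 52.1) of TR-TFH cells of the larger set, and in 15.5% (7.35 to 27.4) and 43.6% (35.0 to 52.5) in the smaller set. Intervals cover counting error only. *Cxcr5* and *Il7r* were found in the same cell, unthinned, in 4 of 141 and 4 of 58 GC-TFH cells and in 34 of 327 and 25 of 133 TR-TFH cells. A cell's summed UMIs of the 6 GC-TFH markers had a median of 17 in GC-TFH and 9 in TR-TFH of the larger set. Most of this sum was *Maf*, which was not called. In the larger set *Maf* gave 1375 UMIs in GC-TFH and 2513 in TR-TFH, and *Icos*, the next marker, 398 and 486. The overlap in this sum therefore largely follows *Maf*. In the larger set 49 of 327 TR-TFH cells reached the GC-TFH median, and so did 22 of 133 in the smaller set. All 4 TR-TFH markers were unseen in 39 of 141 and 17 of 58 GC-TFH cells, and in 12 of 327 and 2 of 133 TR-TFH cells.

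**Figure D2:**
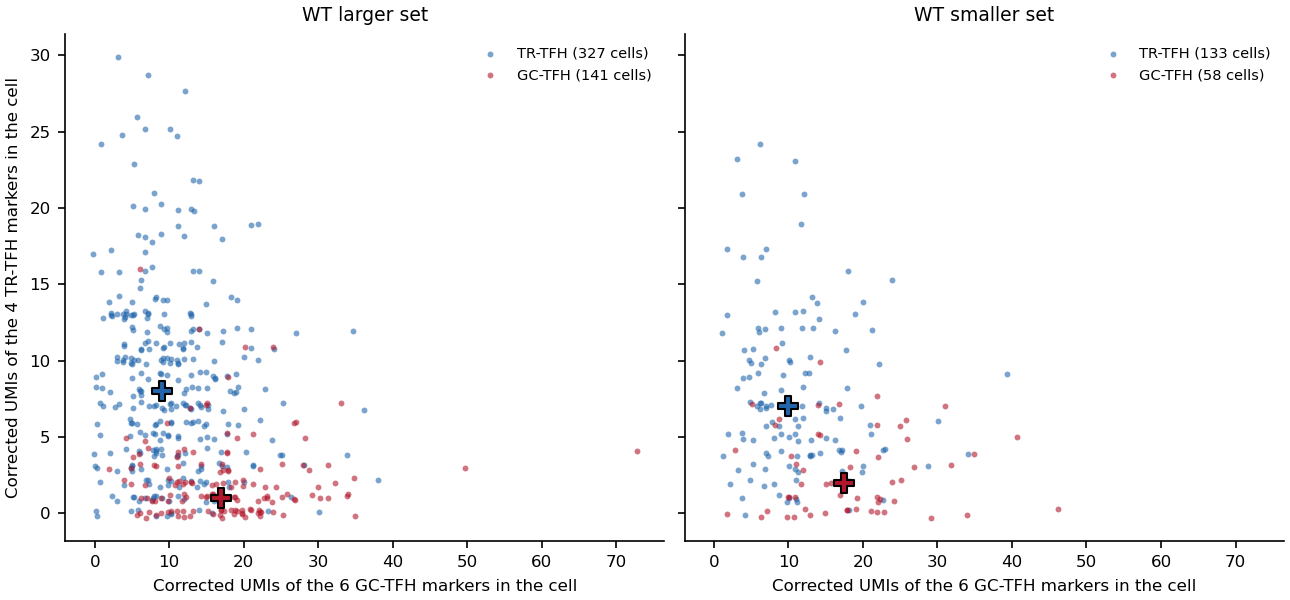
Summed corrected UMIs of the 6 GC-TFH markers (horizontal axis) and the 4 TR-TFH markers (vertical axis) in each TGFβR-WT cell of the larger (left) and smaller set (right), with a small random shift so that points do not hide each other. Crosses are medians, at 17 and 1 for GC-TFH and 9 and 8 for TR-TFH in the larger set. Most of the GC-TFH marker UMIs were of *Maf*, which was not called.

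By the rule used to name genes, the 15 genes with the widest gap toward GC-TFH, ranked by the smaller of the ratios in the sets, were *Ier5l*, *Sostdc1*, *Il1r2*, *Penk*, *Hivep3*, *Stx11*, *Cd83*, *Cd160*, *Cebpa*, *Gadd45b*, *Nfkbid*, *Marcksl1*, *Tubb2a*, *Rilpl2* and *Pdcd1*. *Sostdc1* (chr12:36314139-36318452 on mm10, plus strand), a secreted antagonist of BMP and WNT signals, was among the more abundant of them. It stood at 4.91 in GC-TFH and 0.615 in TR-TFH of the larger set, and at 5.88 and 1.08 in the smaller set. In the other TGFβR-WT clusters it was at 0.102 in the larger set and listed at 0 in the smaller one. After thinning, 20.6% and 22.4% of GC-TFH cells and 4.59% and 3.76% of TR-TFH cells held it, so its level came from a minority of GC-TFH cells.

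*Ier5l* (chr2:30471537-30474219, minus strand), of the immediate early response family, stood at 1.35 against 0.116 in the larger set and 0.745 against 0.0374 in the smaller one. *Il1r2*, the decoy receptor that binds IL-1 without signaling, stood at 1.41 against 0.0802, then 0.993 against 0.131. *Il1r2* was not particular to the follicular names, since the other clusters of the larger set held 1.26. *Hivep3*, a zinc finger protein that binds κB-like sites, was 3.92 and 5.86 times higher, and *Stx11*, which works in granule release, 3.78 and 3.93 times. *Cd83*, a surface protein of activated lymphocytes, was 3.75 and 4.03 times higher. *Cd160*, which binds HVEM, was 3.67 and 3.98 times higher, but 1 cell held 44.4% of its GC-TFH UMIs in the smaller set. *Cebpa*, a transcription factor better known from myeloid cells, stood at 1.21 against 0.276 and 1.49 against 0.187, and was near 0 in the other clusters (0.0455 in the larger set, listed at 0 in the smaller set).

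*Penk*, which encodes the precursor of the enkephalin peptides, had the widest gap of the smaller set, 7.28 against 0.393, but 1 GC-TFH cell held 93.8% of those UMIs and 1 held 76.2% in the larger set. Without the cell that held most of it in each group, its log2 ratios were 0.66 and 0.43 in place of 2.17 and 3.91, and it was no longer called. The other 14 were still called when that was done.

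**Figure D3:**
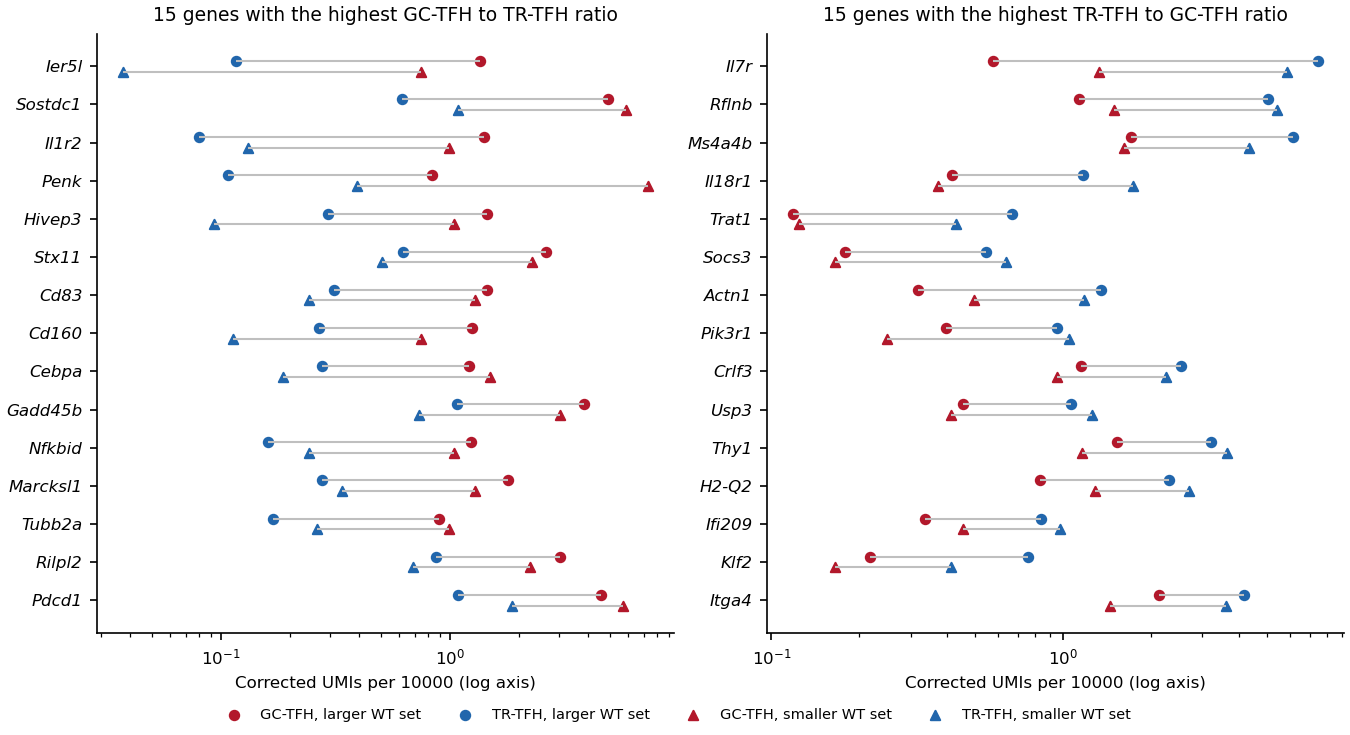
Levels, as corrected UMIs per 10000 on a log axis, of the 15 genes with the widest gap toward GC-TFH (left) and toward TR-TFH (right), in GC-TFH (red) and TR-TFH cells (blue) of the larger (circles) and smaller (triangles) TGFβR-WT sets. In every row red and blue keep their order in both sets, and the *Penk* level of the smaller set rests mostly on 1 cell.

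The 15 genes with the widest gap toward TR-TFH were *Il7r* (chr15:9505788-9530176, minus strand), *Rflnb* (chr11:76019194-76027782, minus strand), *Ms4a4b*, *Il18r1*, *Trat1*, *Socs3*, *Actn1*, *Pik3r1*, *Crlf3*, *Usp3*, *Thy1*, *H2-Q2*, *Ifi209*, *Klf2* and *Itga4*. All 15 were still called without the cell that held most of the gene in each group. *Ms4a4b*, a membrane protein of resting T cells, stood at 6.14 in TR-TFH and 1.70 in GC-TFH of the larger set, and at 4.34 and 1.61 in the smaller set. *Il18r1*, a chain of the IL-18 receptor, stood at 1.17 in TR-TFH and 0.416 in GC-TFH, then 1.74 and 0.372. The other clusters held more of it than either name, 2.75 and 2.82. *Socs3*, which curbs STAT3 signals of cytokine receptors, was 2.31 and 2.77 times higher in TR-TFH, and *Pik3r1*, the regulatory subunit of PI3 kinase, 2.12 and 3.29 times. *Trat1*, an adaptor of the T cell receptor complex, was 3.51 and 2.36 times higher. GC-TFH cells held few UMIs of *Trat1* (6 and 3), *Socs3* (9 and 4) and *Klf2* (11 and 4), so their ratios are uncertain. In the smaller set *Klf2* was seen in 6.90% of GC-TFH and 8.27% of TR-TFH cells. *Thy1*, a surface glycoprotein of mouse T cells, stood at 3.21 in TR-TFH and 1.52 in GC-TFH, then 3.65 and 1.16. *H2-Q2* and *Ifi209* belong to families of near-identical genes whose reads can be split, and their values, 2.58 and 2.03 times and 2.15 and 1.93 times, are uncertain.

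Among 11 tested regulators that promote the follicular helper program, 4 were called for GC-TFH and 1 for TR-TFH, with a list median of 0.58 and 0.68 on the log2 scale in the larger and smaller set. Beside *Bcl6*, these were *Irf4*, *Batf* and *Pou2af1*. *Irf4*, which acts downstream of the T cell receptor, stood at 1.37 against 0.232 and 0.786 against 0.262. *Batf*, its binding partner, stood at 3.94 against 1.43 and 2.73 against 1.66. The gene on the other side was *Tcf7*, which encodes TCF-1 and is also a gene of resting and memory T cells, at 2.61 in TR-TFH and 1.54 in GC-TFH, then 2.24 and 1.45. *Lef1*, its relative, had log2 ratios of -1.16 and -0.54 and missed the limit in the smaller set. *Ascl2*, which can start the program, had too few UMIs to be tested and stood at 0.436 and 0.455 in GC-TFH, against 0.0446 in TR-TFH of the larger set and a listed 0 in the smaller one.

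Of 9 tested regulators that oppose the program, *Klf2* and *Id2* were called for TR-TFH and *Il2rb* for GC-TFH. *Klf2*, which drives exit from tissues through *S1pr1*, was low in both, at 0.757 in TR-TFH and 0.218 in GC-TFH, then 0.411 and 0.166, against 4.16 and 2.47 in the other clusters. *Id2*, an inhibitor of E proteins, stood at 5.57 in TR-TFH and 2.51 in GC-TFH, then 3.85 and 1.99, and at 10.5 and 8.45 elsewhere. Both names lay below the pooled other clusters for these genes, but not below each of them. Over all TGFβR-WT cells *Klf2* was at 0.293 in the cluster named Activated, under the 0.646 of TR-TFH, and *Id2* was at 1.51 in the 5 Tumorigenic cells, under both names. *Il2rb*, the β chain of the IL-2 receptor, went the other way, 2.59 against 1.04 and 2.77 against 1.44. *Prdm1*, the repressor that opposes BCL6, had 5 corrected UMIs over all compared cells and was not tested.

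Receptors that decide where a follicular helper cell sits differed in both directions, 3 of 8 tested toward GC-TFH and 1 toward TR-TFH. *Cxcr4*, which draws cells to the dark zone of the germinal center, stood at 1.92 against 0.820 and 3.19 against 1.40. *Cd69*, which holds cells in tissue by removing the exit receptor S1PR1 and is also an early sign of activation, stood at 1.58 against 0.303 and 1.37 against 0.411. Over all TGFβR-WT cells *Cd69* was lowest in TR-TFH of all clusters, at 0.338, and Migratory was next at 0.621. *S1pr1* itself was 0.846 in TR-TFH and 0.178 in GC-TFH of the larger set but 0.374 and 0.248 in the smaller set, where it was not past the limit. Over all TGFβR-WT cells *S1pr1* in TR-TFH, at 0.694, lay within the range of the other clusters, from 0.171 in Pre-tumorigenic to 3.87 in Migratory. These levels do not bear out the name tissue resident, which is the authors', and residency was not tested. *S1pr2*, which confines cells to the germinal center, was below the minimum for a call and stood at 0.436 against 0.205 and 0.538 against 0.150. Of 10 tested homing and adhesion genes only *Itga4* was called, for TR-TFH, against 1.95% of all tested genes. Its partner *Itgb7* had log2 ratios of -0.45 and -0.60.

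Of 17 tested costimulatory and inhibitory receptors, *Pdcd1*, *Tnfrsf4*, *Cd160* and *Ctla4* were called for GC-TFH and *Slamf6* and *Izumo1r* for TR-TFH. *Ctla4*, which competes with CD28 for its ligands, was 1.88 and 1.60 times higher, and *Cd28* had log2 ratios of -0.82 and -0.51 without a call. *Slamf6*, which supports contacts between T and B cells, stood at 3.28 in TR-TFH and 1.25 in GC-TFH, then 2.94 and 1.90. *Lag3* and *Cd200* passed the limit in the smaller set alone. Of 13 cytokine receptor genes, *Il1r2* and *Il2rb* were called for GC-TFH and *Il7r* and *Il18r1* for TR-TFH, and *Il21r*, *Il6ra* and *Il6st* were not called.

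The secreted and surface signals that T cells give held 5 genes called for GC-TFH of 8 tested and none for TR-TFH. Over all tested genes the shares called were 4.84% and 1.95%. Of these 5, *Penk* was no longer called without the cell that held most of it in each group, with log2 ratios of 0.66 and 0.43. *Il21*, the main helper cytokine for germinal center B cells, stood at 2.77 in GC-TFH and 0.944 in TR-TFH of the larger set, and at 1.61 and 0.580 in the smaller set. *Tnfsf8*, which encodes CD30 ligand, stood at 11.8 against 6.42 and 8.20 against 4.79. *Tgfb1* stood at 1.68 against 0.793 and 3.64 against 1.55. *Il22*, an epithelial repair cytokine made by Th17 cells, was called, but 1 cell held 84.9% of its GC-TFH UMIs in the smaller set. Without that cell and its counterparts the log2 ratios were 0.88 and 1.48. *Cd40lg* was not called, at 2.95 against 2.79 and 2.77 against 3.25. *Il4*, the other classical helper cytokine, had 61 corrected UMIs and was not tested.

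Genes that respond to T cell receptor signals gave 7 calls of 13 tested, all for GC-TFH, with list medians of 0.98 and 0.68, and 12 of the 13 lay above 0 in both sets, against 1531 of all 3697 tested genes. They were *Egr1*, *Egr2*, *Cd69*, *Nfkbid*, *Nfkbia*, *Irf4* and *Rel*. *Egr2*, a transcription factor induced by the receptor, stood at 0.713 against 0.214 and 0.952 against 0.449, with 1 cell holding 45.8% of its TR-TFH UMIs in the larger set. *Nfkbia*, the IκBα that NF-κB induces to stop itself, stood at 5.76 against 2.82 and 4.35 against 2.75. *Nfkbid*, a nuclear IκB protein, stood at 1.23 against 0.160 and 1.04 against 0.243. *Rel*, the NF-κB subunit c-Rel, was 2.16 and 2.64 times higher. The other 5 list members were below the minimum and were not tested. *Nr4a1*, the most direct reporter of receptor signals in mouse T cells, had 97 corrected UMIs and stood at 1.07 against 0.0267 and 1.53 against 0.0561. *Egr3* stood at 1.15 against 0.143 and 0.786 against 0.0561. In the smaller set 1 GC-TFH cell held 48.6% of the *Nr4a1* and 1 held 47.4% of the *Egr3* UMIs. *Nr4a3* stood at 0.356 against 0.0713 and 0.621 against 0.0561, *Myc*, with 33 corrected UMIs, at 0.277 against 0.125 and 0.124 against 0.0374, and *Nr4a2* was listed at 0 in both names of both sets.

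Several of these genes are also induced when tissue is dissociated, so the AP-1 and stress list is given beside them. Of its 18 tested genes, 3 were called for GC-TFH, *Dusp2*, *Hsp90aa1* and *Hsp90ab1*, with list medians of 0.14 and 0.33. *Fos* was 3.15 in GC-TFH and 3.67 in TR-TFH of the larger set and 1.57 and 1.36 in the smaller set, and *Jun* had log2 ratios of -0.40 and -0.43. Neither was called, and both stood higher in the other clusters, *Jun* at 9.61 and 46.3. The heat-shock gene *Hspa8* differed more between the sets than between the names, at 4.95 and 3.40 in the larger and 21.1 and 12.3 in the smaller set. The part of dissociation in the receptor genes was not tested.

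Glucose use showed 6 calls of 12 tested, all for GC-TFH, with medians of 0.69 and 0.50. *Hif1a*, the transcription factor that turns on glycolytic genes, stood at 1.64 against 0.454 and 1.08 against 0.430. *Tpi1* was 2.48 and 2.89 times higher and *Gapdh*, far more abundant, 1.71 and 1.56 times, with *Aldoa*, *Pgk1* and *Pfkp* between 1.59 and 1.93 times. *Ldha*, which makes lactate, reached 4.34 against 2.36 in the larger set and 5.13 against 4.04 in the smaller one and was not called. *Gpi1* and *Eno1* lay just below 0 in both sets. Ribosomal proteins went the other way in small steps. Of 80 tested, 68 were lower in GC-TFH in both sets, against 956 of all 3697 tested genes. With the medians of all genes set to 0 these were 73 and 1227, and no ribosomal protein was called for TR-TFH. Their summed level was 2224 in GC-TFH and 2758 in TR-TFH of the larger set, and 2080 and 2457 in the smaller set. The calls within that family were *Rps27l* and *Rpl7l1*, both for GC-TFH and both relatives of a core ribosomal gene.

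Quiescence and memory genes held 6 calls of 16 tested, all for TR-TFH, and none of the 16 lay above 0 in both sets. Their medians were the lowest of all lists with 6 or more tested genes, -0.58 and -0.53. Beside *Il7r*, *Tcf7* and *Klf2* these were *Klf6*, *Satb1* and *Txnip*. *Klf6*, a zinc finger factor, stood at 1.83 in TR-TFH and 1.03 in GC-TFH, then 1.83 and 1.12, under the 3.38 and 15.3 of the other clusters. *Txnip*, which limits glucose uptake, stood at 1.86 in TR-TFH and 1.03 in GC-TFH, then 2.24 and 1.45. *Bcl2*, the survival factor, did not hold, with log2 ratios of 1.38 and -0.27.

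**Figure D4:**
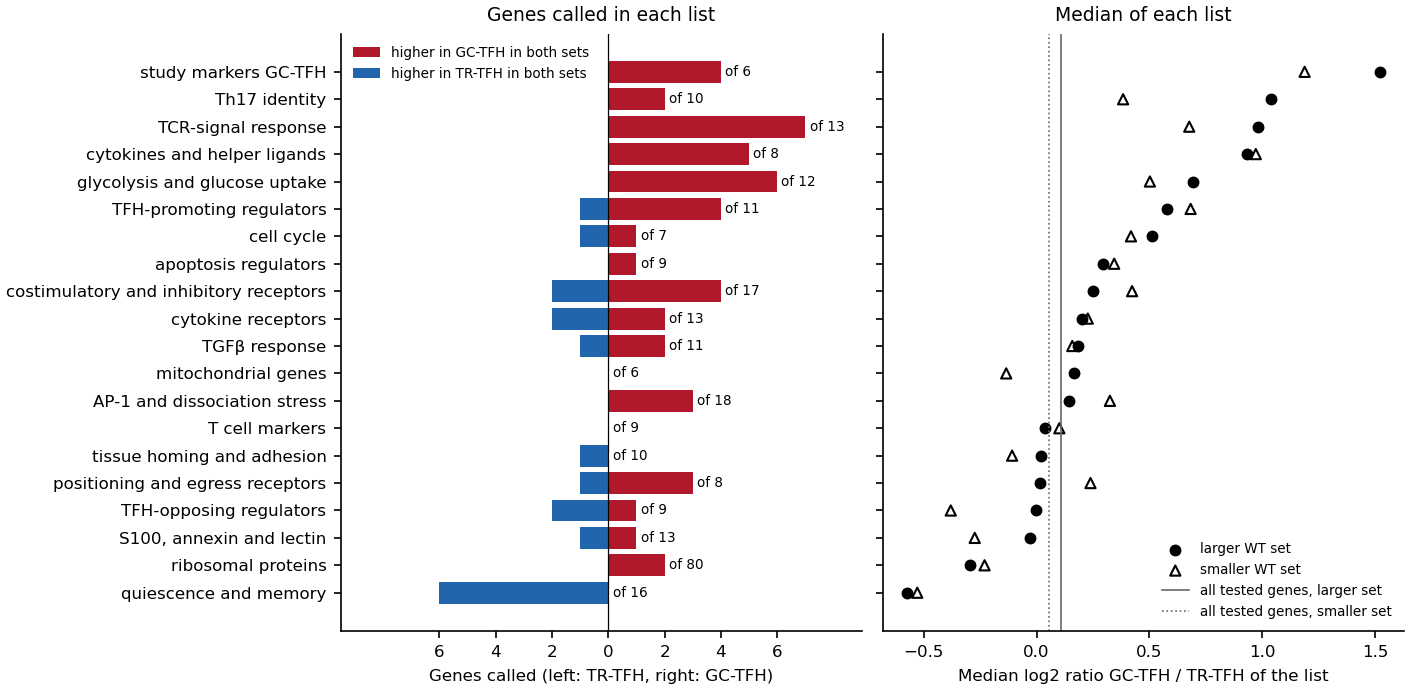
For each list with 6 or more tested genes, the number called in both TGFβR-WT sets for GC-TFH (red, to the right) and TR-TFH (blue, to the left) of the number tested, and the median log2 ratio of GC-TFH over TR-TFH in the larger (filled circles) and smaller set (open triangles). Lines mark the median of all tested genes, 0.11 and 0.06, and receptor signals, helper ligands and glycolysis lie to the right and quiescence genes to the left.

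The Th17 genes of the list all lay above 0 in both sets, 10 of 10 tested, against 1531 of all 3697 tested genes. Of them 2 were called for GC-TFH, *Il22* and *Furin*, and 1 cell held 84.9% of the GC-TFH *Il22* UMIs in the smaller set. Both names lay below the pooled other clusters in the summed level of the list. It was 18.4 in GC-TFH and 9.13 in TR-TFH against 46.1 in the larger set, and 17.8 and 11.1 against 56.5 in the smaller set. Median log2 ratios of the list were 1.04 in the larger set and 0.38 in the smaller one. *Il17a* itself had 41 corrected UMIs over all compared cells and *Il17f* 48, and neither was tested. *Furin*, which encodes a protease that matures TGFβ, stood at 3.23 against 1.13 and 2.15 against 1.16, under the 8.52 and 7.14 of the other clusters. Among 11 tested genes of the TGFβ response, *Skil*, a repressor of SMAD proteins that they induce, and *Tgfb1* were called for GC-TFH, and *Cdkn1b*, a cell cycle inhibitor, for TR-TFH with log2 ratios of -0.59 and -0.60. Of 9 apoptosis regulators, *Bcl2l11*, which encodes the death factor BIM, was called for GC-TFH, at 0.614 against 0.348 and 0.828 against 0.243. *S100a4* was called for GC-TFH and *Lgals9* for TR-TFH among 13 S100, annexin and lectin genes. Over all tested genes the shares called were 4.84% and 1.95%, so single calls in a list are not a result about its family. Of 7 tested cell cycle genes, *Mcm6* was called for GC-TFH and *Hmgb2* for TR-TFH, and *Mki67* had too few UMIs to be tested, at 0.178, 0.160, 0.0828 and 0.299.

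Markers of other cells were checked beside these groups. All 9 T cell markers were tested and none was called, with *Cd4* at 4.12 and 4.73 in the larger and 5.13 and 5.03 in the smaller set. Of the B and plasma cell markers, 13 of 14 were in the table, 1 of them at 0, and their summed level was 9.66 in GC-TFH and 2.28 in TR-TFH of the larger set, against 1.95 and 1.31 in the smaller set. Most of it was *Ighm*, the only one tested, at 5.84 and 1.59, then 1.86 and 1.14. *Cd79a* and *Ms4a1*, which define B cells, were at 0.277 and 0.0792 in GC-TFH of the larger set and listed at 0 in both names of the smaller set. UMIs of *Cd79a*, *Cd79b* or *Ms4a1* were seen in 5 of 141 GC-TFH and 5 of 327 TR-TFH cells of the larger set. Without these cells and 2 of the smaller set, 191 and 72 genes were called, 175 and 70 of them the same genes. For regulatory T cells, *Foxp3* had 9 corrected UMIs, listed at 0 in both names of the smaller set, and the summed level of 5 markers was 9.66 and 5.62, then 5.55 and 4.88. Myeloid markers summed to 3.13 and 3.34, then 3.93 and 4.47, with *Tyrobp* and *Lyz2* at 0, epithelial markers to at most 0.21, and CD8, γδ T and NK markers to at most 0.75. Mitochondrial genes had no call, at 158.3 and 139.3 in the larger and 119.0 and 124.9 in the smaller set.

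TGFβR-KO and TGFβR-CA cells carry the same 2 names, made in the same clustering, so their values are set beside TGFβR-WT and are not independent evidence. Of the 179 GC-TFH genes, 145 (81.0%) passed 1.5 times in TGFβR-KO, which is 28.5% of the 508 that passed there, and 119 (66.5%) passed in TGFβR-CA, 39.0% of 305. Of the 72 TR-TFH genes, 36 (50%) passed in TGFβR-KO, 29.5% of 122, and 34 (47.2%) in TGFβR-CA, 33.3% of 102. Opposite signs were seen in 4 and 2 of the GC-TFH genes and 3 and 3 of the TR-TFH genes, and none of these was a leading or list gene. *Il21* stood at 1.57 in GC-TFH and 0.254 in TR-TFH of TGFβR-KO and 2.16 and 0.796 of TGFβR-CA. *Irf4* stood at 1.23 and 0.130, then 0.597 and 0.265. *Id2* stood at 5.63 in TR-TFH and 4.77 in GC-TFH of TGFβR-KO, against 2.13 and 1.06 in TGFβR-CA. Differences in these gaps between conditions were not tested, with 1 sample for each of TGFβR-KO and TGFβR-CA.

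**Figure D5:**
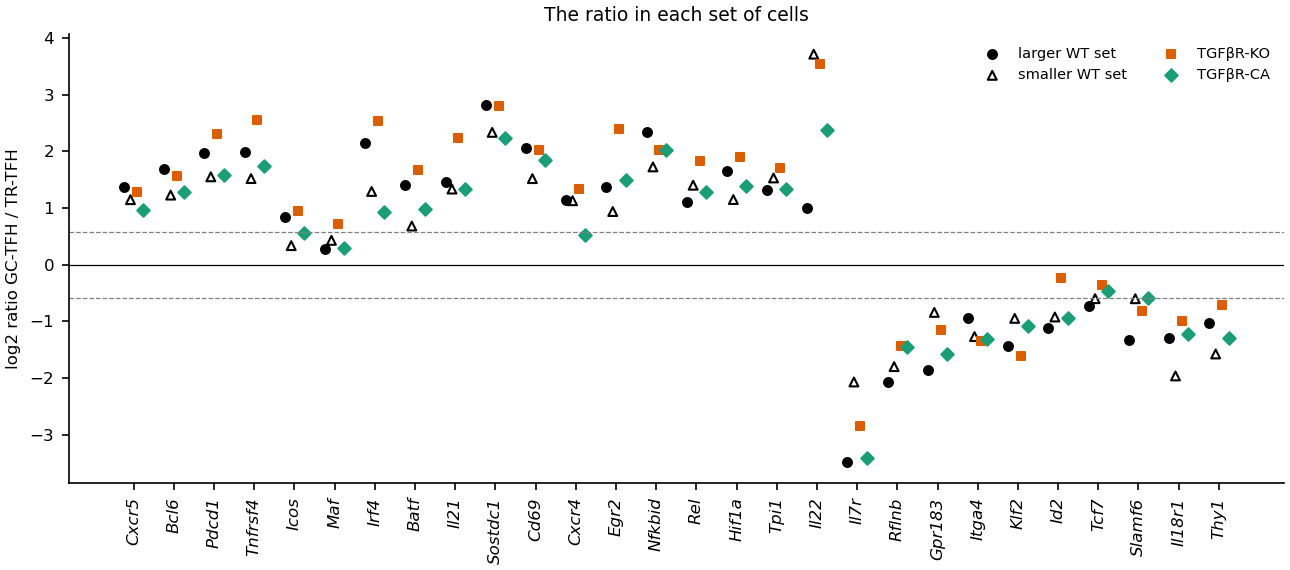
The log2 ratio of GC-TFH over TR-TFH for 28 named genes in the larger and smaller TGFβR-WT sets (black), TGFβR-KO (orange) and TGFβR-CA (green), with dashed lines at 1.5 times. All 4 sets keep the same sign for each gene, and *Icos* in the smaller and *Maf* in both TGFβR-WT sets lie under the line.

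GC-TFH made up 30.2% of the TGFβR-WT cells with either name (199 of 659, exact Clopper-Pearson 95% interval 26.7 to 33.9), with a share of 30.1% among cells of the larger set and 30.4% among those of the smaller one. It was 38.0% (34.7 to 41.4) in TGFβR-KO and 32.1% (28.9 to 35.4) in TGFβR-CA. These are shares of sorted and filtered cells from pooled mice, and no test between conditions was made. The intervals cover counting error only and not the spread between mice or samples. TGFβR-KO and TGFβR-CA had 1 sample each, so these shares do not show a difference between conditions.

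How the cells part was also checked without the tested list genes. When 2 groups were rebuilt in each set from 10 principal components made without these 263 genes, the group richer in GC-TFH took 89 of 141 GC-TFH and left 251 of 327 TR-TFH cells on the other side in the larger set, with an adjusted Rand index of 0.193. In the smaller set it took 40 of 58 and left 82 of 133, with an index of 0.073, where 1 is full agreement and 0 is that of random groups. Of 54 called list genes that had been left out, 44 kept their direction in both sets between the rebuilt groups and 20 passed 1.5 times. These genes had been called on the same cells, and called genes outside the lists still helped to build the groups. Each rebuilt group was also matched to a name by its share of GC-TFH cells. The counts are therefore not independent evidence, and none over all tested genes is given beside them. *Il7r* kept log2 ratios of -2.07 and -1.91 and *Tnfrsf4* of 1.66 and 1.18. In the larger set, 64 of 141 GC-TFH and 310 of 327 TR-TFH cells had at least 12 of their 15 nearest neighbors under the same name, and in the smaller set 1 of 58 and 117 of 133. GC-TFH made up 30.1% and 30.4% of the cells in these sets, so this rule was easier to meet for TR-TFH. These counts do not compare how closely the cells of each name lay together. Among those cells of the larger set, 165 of the 179 GC-TFH genes and 66 of the 72 TR-TFH genes passed 1.5 times. Called genes were not left out when these neighbors were found, so this count is not independent evidence.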

How the data were processed

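Small-intestinal YFP+CD4+ T cells were profiled by droplet sequencing, read with Cell Ranger 3.1.0 and processed in Seurat per the submitters' notes. The authors deposited natural log values of 1 plus SCTransform-corrected UMIs with their cluster names, after removing low-quality, γδ T and epithelial cells. All 7880276 nonzero values became whole numbers (tolerance 1e-06) once the log was undone. Corrected UMIs are not raw counts and ran from 2955 to 5036 per compared cell, so no count model was used. Levels per 10000, ratios with 0.1 added, a minimum of 100 corrected UMIs and the 1.5-fold limit were computed within each TGFβR-WT set. Named genes were the 15 with the largest smaller ratio in each direction plus members of 24 lists. Members and lists were chosen with earlier results of these data known. Scripts ran in Python 3.11.15 with scanpy 1.11.5 and scikit-learn 1.9.0 and were tested on simulated data. A doublet caller marked 17 of 5080 cells (0.335%), too few to have worked, and they were kept. Gene positions came from GENCODE by symbol.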

Additional observations from a re-analysis of the deposited data

How the results depend on the processing

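The numbers of genes called for GC-TFH and TR-TFH, 179 and 72, moved by over 1.5 times under several settings. They were 38 and 12 at 2 times, 282 and 111 with a minimum of 50 corrected UMIs, 85 and 40 with 200, and 408 and 168 with none. Adding 0.5 gave 78 and 23, and means of the natural-log values over cells gave 7 and 3. The larger set alone gave 394 and 187, the smaller set alone 458 and 288, and all TGFβR-WT cells pooled 323 and 136. Without the cell that held most of a gene in each group, an alternative chosen after seeing the data, 159 and 96 were called, 155 and 72 of them the same genes. Adding 0.02, means of levels over cells, medians set to 0, and leaving out shared barcodes, marked doublets, cells above 5% mitochondrial or cells with a B cell gene each kept both counts within 1.5 times. Shared barcodes took out 2 compared cells, marked doublets 8 and the mitochondrial limit 1, so these settings could move the counts little. Doublets that the caller missed were not checked. The GC-TFH share ranged from 29.95% to 30.37%. Between the rebuilt groups the mean log2 ratio changed sign for *Tubb2a* (-0.0761), *Il18r1* (0.0119), *Pou2af1* (-0.0923), *Cxcr4* (-0.0554) and *Lgals9* (0.102), and the cause was not tested. Cells with mostly same-named neighbors gave no value in the smaller set, where 1 GC-TFH cell was left. No paired analysis was possible because the comparison lies within samples, comes from no test, and the cells carry no sample number from the labels.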

Other observations

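Genes outside the lists were read as well, and those named here were chosen after their values were seen. No list of their functions was counted, so they stand as single genes. The first 6 were among the 179 called for GC-TFH. *Mrto4*, an assembly factor of the large ribosomal subunit, stood at 0.812 in GC-TFH and 0.241 in TR-TFH of the larger set and 1.08 and 0.150 in the smaller set. *Ddx21*, a nucleolar RNA helicase, stood at 5.35 and 3.11, then 4.14 and 2.45. *Gar1*, of the small nucleolar particles that modify ribosomal RNA, stood at 1.11 and 0.535, then 0.828 and 0.299.

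*Hspa5*, the main chaperone of the endoplasmic reticulum, stood at 7.68 and 4.04, then 9.02 and 5.44. *Xbp1*, a transcription factor of the unfolded protein response, stood at 1.44 and 0.713, then 1.53 and 0.748. *Srgn*, the proteoglycan of secretory granules, was far more abundant, at 37.9 and 14.8, then 27.6 and 9.14. *Axin2*, called for TR-TFH, is a target and brake of WNT signals and stood at 0.597 in TR-TFH and 0.178 in GC-TFH, then 0.393 and 0.166.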
